A study of Mus musculus with 49 samples.

Results

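The 10 genes described here are the intestinal goblet cell genes Muc2, Tff3, Fcgbp, Agr2, Spink4, Zg16 and Spdef and the stomach-associated genes Tff1, Tff2 and Muc6. They were taken by symbol from the 46078 Ensembl identifiers of the count table, and each symbol matched 1 identifier. Their levels were followed in 49 libraries from 16 conditions, all from wild-type C57BL/6J mice. Hepatocytes of 10-week-old mice were sequenced freshly isolated (FH, n = 3) and after monolayer culture for 3 h or 1, 2, 4, 7 or 14 days (n = 3 each) in medium with 20 ng/mL EGF. Separate 7-day monolayers, also with 20 ng/mL EGF, received 0.3 µM verteporfin, a Yap inhibitor, or DMSO (n = 2 each). Hepatocytes that had lost their mature state and were passaged in culture, the dediHeps (n = 5), were kept as monolayers with 20 ng/mL EGF. They were also grown as floating aggregates in another medium (n = 3). In Matrigel with Wnt3a, CHIR99021, EGF, Noggin and R-spondin1 they formed spherical organoids (dediHep-SOs, n = 3). Budding organoids (dediHep-BOs, n = 3) came from dediHeps that carried a retroviral Cdx2 and were kept with EGF, Noggin and R-spondin1. Chemically induced liver progenitors (CLiPs, n = 3) were made from hepatocytes with Y-27632, A-83-01 and CHIR99021. The native intestinal organoids were spherical ones from fetal intestinal progenitor cells of E13.5 embryos (FIPC-SOs, n = 3) and budding ones from small intestinal crypts of 10-week-old mice (ISC-BOs, n = 4).

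Goblet cells secrete the mucus that covers the intestinal epithelium. MUC2 is the gel-forming mucin of that mucus, AGR2 is an endoplasmic reticulum protein needed for MUC2 folding, and FCGBP, ZG16 and the trefoil peptide TFF3 are secreted with it. SPINK4 is a small secreted protein with a Kazal-type inhibitor domain, and SPDEF is an ETS transcription factor that promotes goblet cell maturation downstream of ATOH1. In the stomach, TFF1 belongs to surface mucous cells, while TFF2 and the mucin MUC6 belong to mucous neck and gland cells and to the Brunner's glands of the duodenum. CDX2, the factor used to make the budding organoids, is a homeobox regulator of intestinal identity.

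In the GENCODE M21 annotation of GRCm38, all 10 were protein-coding genes, and several lay side by side. Tff1 lay on chromosome 17 from 31161395 to 31165277, Tff2 from 31141049 to 31144282 and Tff3 from 31125306 to 31129646, all on the minus strand. The gap between Tff1 and Tff2 was 17.1 kb and that between Tff2 and Tff3 11.4 kb, with no other protein-coding gene in either. Muc2 (chromosome 7, 141690340 to 141754693, plus strand) and Muc6 (chromosome 7, 141633456 to 141655319, minus strand) were 35020 bases apart. An antisense gene, Gm15318, shared 221 exonic bases with Tff1. The table held 170 counts of it in all, against 6916 of Tff1, and the strand setting of the counting was not given in the sources used here.

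RefSeq promoter windows (GRCm38.p6, 250 bases before to 50 after the start) were at hand for 5 of the 10 genes: Muc2, Muc6, Fcgbp, Agr2 and Spdef. Because the dediHep-BOs, unlike the dediHep-SOs, carried a retroviral Cdx2, these windows were searched on both strands for the Cdx-type letters CNATAAA, which also include a TATA-box form, CTATAAA, and for the E-box letters CAGCTG, to which ATOH1-type factors can bind. The Cdx-type letters occurred in 10.9% of all 32851 windows and, among the 5, in that of Agr2, 48 bases before the start. The E-box occurred in 16.3% of all windows and in those of Muc2, 112 bases before the start, and Fcgbp, 208 bases before it. The 3 matches are shown with their surroundings on the plus strand, which is the strand of these genes, and capitals mark the searched letters. They describe letters in a window, not bound sites.
Agr2, chr12:35992866-35992894: gtgtgctctgcCCATAAAtacaggctcag
Muc2, chr7:141690217-141690245: tggagcccccaCAGCTGttttcctgataa
Fcgbp, chr7:28071017-28071045: ggtgtagccacCAGCTGctctcacaccca

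Levels are given as CPM, counts per 1e+06 of a library's total, scaled by the TMM method over the 49 libraries. A count was 1 distinct molecular tag at the 3′ end of a transcript, so levels were not divided by gene length. Total counts ranged from 861047 to 3872936 per library, and 3 counts, the limit that a count of 0 allows, were worth 0.630 to 4.10 CPM, which covers counting error only. The label of the dediHep-BOs was checked on Cdx2, which stood at 172, 205 and 345 CPM there, 69.5 to 105 CPM in dediHep-SOs and 295 to 358 CPM in ISC-BOs, and these counts do not separate the retroviral from the endogenous transcript. The third dediHep-SO library stood apart for several of the genes, and results that rest on it are given with and without it. The libraries are bulk samples, in which fewer cells of a type and less RNA per cell cannot be told apart.

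Across the 16 conditions the genes fell into different patterns. Muc2, Fcgbp, Agr2 and Spink4 had a mean above 10 CPM in the same 4 conditions, the dediHep-SOs, dediHep-BOs, FIPC-SOs and ISC-BOs, while Zg16 and Spdef did so in 3 each. Tff1 passed that level in 8 conditions, most of them hepatocyte monolayers or spherical organoids, Tff2 in 1, Tff3 in 6 and Muc6 in none. Over the 16 condition means on the log2(CPM + 1) scale, Pearson's r between Muc2 and Fcgbp was 0.986, Muc2 and Spink4 0.966, and Muc2 and Agr2 0.949. With Muc2, r was 0.709 for Tff3 and 0.281 for Tff2, and it was -0.166 for Tff1. These values are descriptions, since the points share the contrast between organoids and all other cultures.

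**Figure D1:**
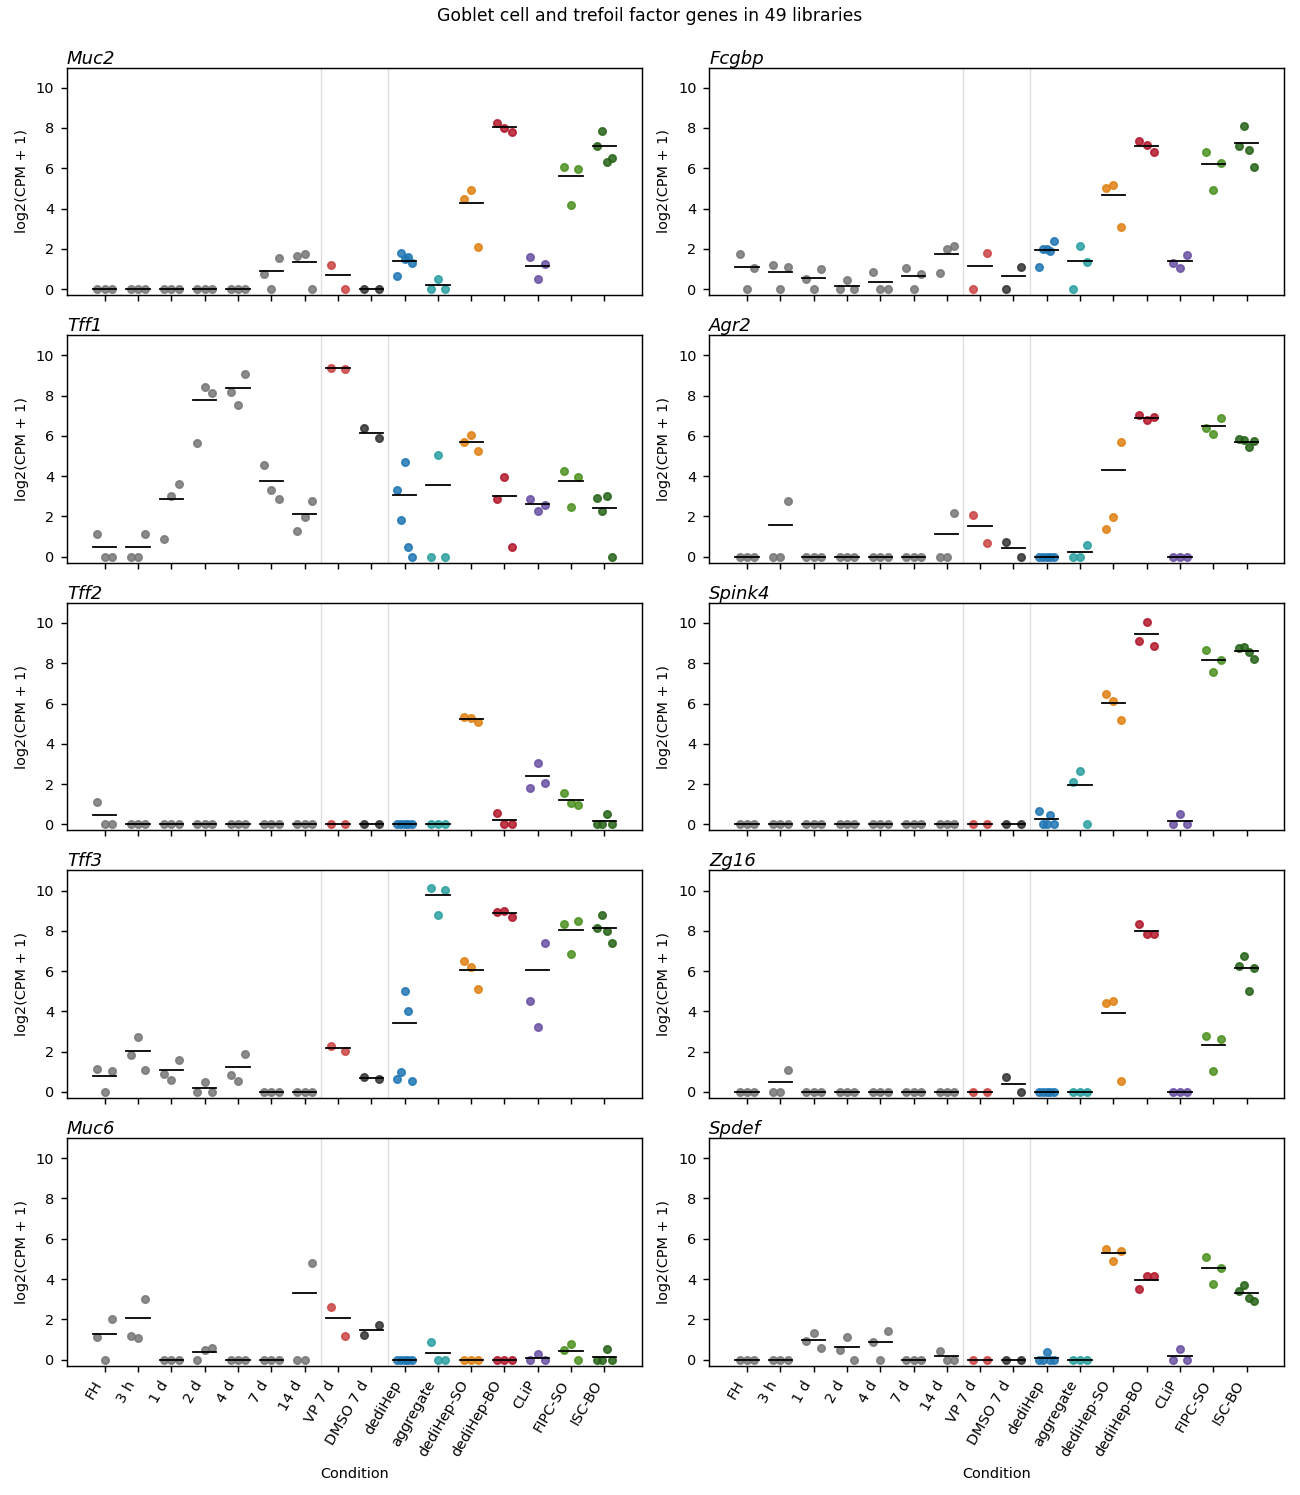
Level of each gene in each of the 49 libraries as log2(CPM + 1) by condition; points are libraries and black lines mark the group means. Muc2, Fcgbp, Agr2 and Spink4 average above 10 CPM in the 4 organoid conditions, Zg16 averages 4.01 CPM in FIPC-SOs and Spdef 8.90 CPM in ISC-BOs, Tff1 peaks in the monolayers at 2 and 4 days and with verteporfin (VP), Tff2 in the dediHep-SOs, and Tff3 in aggregates and organoids.

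The first question was which of these genes freshly plated hepatocytes express. Tff1 was the only one of the 10 that passed the low-count filter in the time course, and it did so through culture times at which it was high. It was near 0 in FH, with 1.18, 0 and 0 CPM, and at 3 h, with 0, 0 and 1.16 CPM. At 1 day it stood at 0.867, 7.06 and 11.2 CPM. It then reached 48.8, 338 and 281 CPM at 2 days and 286, 182 and 535 CPM at 4 days. The ranges of these 2 times overlapped each other and lay above those of every other time. At 7 days the level was back at 22.9, 8.98 and 6.20 CPM, and at 14 days at 1.43, 2.93 and 5.74 CPM.

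Against FH, with all 7 time groups in 1 edgeR fit, Tff1 rose at 2 days by 8.84 ± 1.16 (log2 fold change ± SE, adjusted p = 2.6e-06) and at 4 days by 9.43 ± 1.16 (adjusted p = 8.24e-07). Of all genes tested, 9.21% were called higher at 2 days and 11.4% at 4 days, at an adjusted p under 0.1 and a log2 fold change over 2. FH held 1 Tff1 count in all, so the ratio of pooled counts at 4 days, 813, has a counting interval from 146 to 32114. Tff1 was also called higher at 7 days (4.74 ± 1.37, adjusted p = 0.00782, background 13.2%). The call at 1 day (3.69 ± 1.52, adjusted p = 0.0665, background 6.57%) was lost without FH replicate 2 or 3 or without 1-day replicate 2 or 3, at adjusted p values up to 0.193. At 14 days Tff1 was not called (2.65 ± 1.73, adjusted p = 0.216, background 14.1%), but it was by DESeq2 (2.88, adjusted p = 0.081) and without the low-count filter (2.69, adjusted p = 0.0644). A contrast of 14 against 4 days, added after the counts had been seen, showed that it fell (log2 fold change -6.79 ± 0.87, adjusted p = 1.71e-05, background of genes called lower 4.48%).

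The other 9 genes were scarce throughout the time course. Muc2 was at 0 from FH to 4 days and between 0 and 2.35 CPM at 7 and 14 days. Spink4 had no count at any time, and Zg16 had 1, at 3 h. Tff2 had 1 count in FH and none later. Muc6 was at 26.4 CPM in 1 of the 14-day libraries and at 0 in the other 2, and did not exceed 6.97 CPM elsewhere in the course.

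Verteporfin was compared with DMSO in 7-day monolayers to address the role of Yap. Tff1 stood at 671 and 647 CPM with verteporfin and at 81.6 and 58.7 CPM with DMSO, with no overlap. It rose by 3.26 ± 0.26 (log2 fold change, edgeR adjusted p = 0.000874), which is 9.51-fold on the pooled counts. Of 10400 genes tested, 0.240% were called higher. In a fit over all 49 libraries the log2 fold change was 3.23 with an adjusted p of 1, and no gene was called. The untreated 7-day monolayers, at 6.20 to 22.9 CPM, carry other culture numbers in the labels and are shown side by side only. Of the other genes, Tff3 (3.87 and 3.09 CPM with verteporfin, 0.658 and 0.559 CPM with DMSO) and Agr2 (3.22 and 0.619 against 0.658 and 0 CPM) were too scarce to be tested, and Tff2, Spink4 and Spdef had no count in either group.

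**Figure D2:**
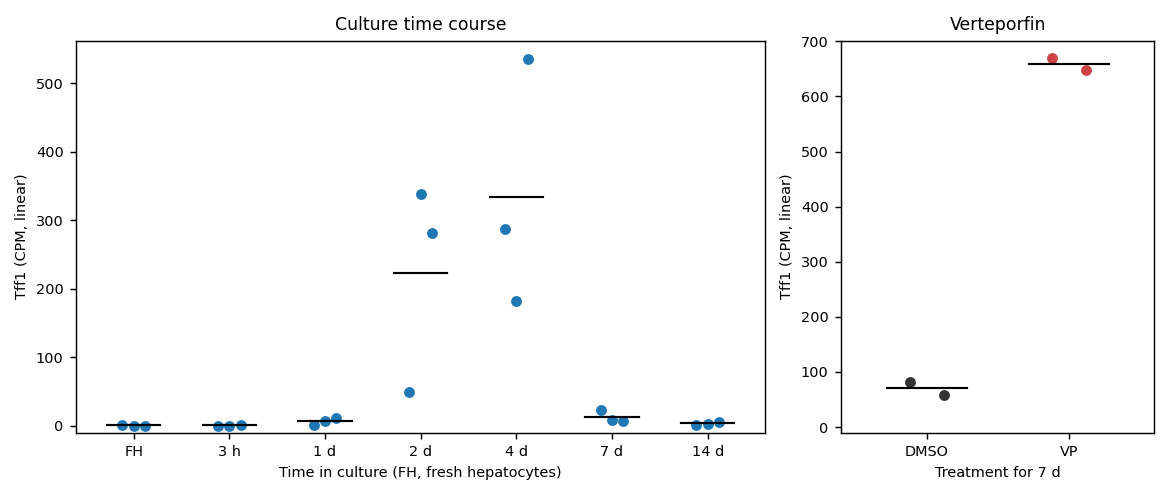
Tff1 in CPM on a linear axis in the time course (left) and after 7 days with DMSO or verteporfin (right); points are libraries and lines mark means. The 2-day and 4-day libraries lie between 48.8 and 535 CPM and the other times at 22.9 CPM or below, and both verteporfin libraries exceed 640 CPM against 81.6 CPM or less with DMSO.

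In dediHeps, no gene of the 10 passed the filter against FH, where 25.7% of the genes tested were called. Tff1 ranged from 0 to 25.4 CPM over the 5 libraries, with a median of 2.51 CPM, and Tff3 from 0.473 to 31.4 CPM, with a median of 1.01 CPM. Replicate 3 was the highest for both. Agr2, Tff2, Zg16 and Muc6 had no count in any of the 5 libraries. Muc2, by contrast, was counted in all 5, at 0.559 to 2.51 CPM, and Fcgbp at 1.12 to 4.26 CPM.

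In floating aggregates of dediHeps, the level of 1 trefoil gene stood out. Aggregates and monolayer dediHeps differ in medium as well as in shape. Tff3, the intestinal trefoil, stood at 1103, 449 and 1047 CPM in the 3 aggregates, above all 5 dediHep libraries. It rose by 6.37 ± 1.06 (log2 fold change, adjusted p = 0.00439), in a comparison in which 4.39% of all genes were called higher. Tff3 passed the filter through the aggregate libraries, so its call is not weighed against that share. Tff3 made up 98.2% of the summed mean level of the 10 genes there. Spink4, at 3.23, 5.21 and 0 CPM, and Fcgbp, at 0, 3.47 and 1.53 CPM, stayed low, and Tff2, Zg16 and Spdef had no count. Tff1, the other gene tested, was at 0, 32.6 and 0 CPM and was not called (0.53 ± 1.45, adjusted p = 0.822). The direction of the Tff1 value rests on the second aggregate, since without it Tff1 was at 0. Hepatocyte markers were also higher in aggregates, with 8 genes summing to 7650 to 12219 CPM against 1008 to 4433 CPM in dediHeps. The enterocyte list was higher too, at 953 to 1283 CPM against 37.5 to 533 CPM. That list does not set enterocytes apart from hepatocytes. In FH it summed to 2002 to 2211 CPM, with Vil1, Alpi, Sis, Lct and Rbp2 at 0. The part of these cell states in the Tff3 result was not tested.

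In dediHep-SOs, 9 of the 10 genes were detected, and stomach and goblet cell genes appeared together. Tff2, the gland-type trefoil, stood at 38.6, 37.7 and 32.4 CPM against 0 in every dediHep library, at least 143-fold higher. Spdef was at 44.7, 28.8 and 41.2 CPM, where the 5 dediHep libraries held 1 count. Spink4 was at 88.0, 68.0 and 35.6 CPM and Fcgbp at 31.2, 34.7 and 7.40 CPM. For each of the 4 genes the ranges of the SO and dediHep libraries did not overlap.

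All 4 rose against dediHeps. The log2 fold change of Spink4 was 8.14 ± 0.68 (edgeR adjusted p = 3.6e-05), that of Spdef 8.14 ± 0.62 (adjusted p = 2.5e-05) and that of Fcgbp 3.07 ± 0.54 (adjusted p = 0.00404). Tff2 was called as well (adjusted p = 0.00026), with the bound above in place of a fitted fold. Of 11470 genes, 4.12% were called higher, and 6 of the 10 genes passed the filter. Tff2, Spdef and Spink4 had 0, 1 and 2 counts in dediHeps and passed it through the SO libraries. Fcgbp, at most 4.26 CPM in dediHeps, did so too. Their calls are therefore not independent of the filter and are not weighed against that share.

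Tff1 and Tff3 passed the filter without being called. Tff1 stood at 50.8, 65.5 and 37.0 CPM in SOs (2.71 ± 0.99, adjusted p = 0.114) and Tff3 at 88.7, 72.9 and 33.3 CPM (2.67 ± 1.01, adjusted p = 0.123). Both were called without dediHep replicate 3, in which they were highest, with log2 fold changes of 4.13 (adjusted p = 0.0161) and 3.81 (adjusted p = 0.0302). A block by culture, in which 3 cultures gave both kinds of library, called both too, at 2.44 ± 0.63 for Tff1 (adjusted p = 0.0541) and 3.87 ± 1.06 for Tff3 (adjusted p = 0.0702). Within each of these cultures the SO library was the higher one for both genes. Tff1 was at 50.8 against 8.95 CPM, 65.5 against 25.4 CPM and 37.0 against 2.51 CPM, and Tff3 at 88.7 against 0.559 CPM, 72.9 against 31.4 CPM and 33.3 against 1.01 CPM.

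The other 3 detected genes differed among the SO libraries and were not tested. Muc2 was at 21.2, 29.8 and 3.24 CPM and Zg16 at 20.2, 21.8 and 0.463 CPM, so both were low in the third SO library. Agr2 showed the opposite order, at 1.61, 2.98 and 51.4 CPM. The third library, in which Agr2 was highest and Muc2, Fcgbp, Zg16, Tff3 and Spink4 lowest, was close to the others for Spdef and Tff2. Against dediHeps, pooled Zg16 counts were at least 57.9-fold and pooled Agr2 counts at least 65.5-fold higher. Of the 122 Agr2 counts, 111 were in the third library, and without it the bounds were 8.39-fold for Agr2 and 81.6-fold for Zg16. Without that library 8 genes were tested against dediHeps and 6 called, with Muc2 (3.88 ± 0.49, adjusted p = 0.00132) and Zg16 (adjusted p = 0.00327) in addition to the 4 above.

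Other gastric, mucin and goblet genes moved with them in part. Their lists were chosen with earlier results of these data known, so they give context and not separate evidence. Of 17 gastric and Brunner's gland genes, 5 were tested, and Gkn3 (133 CPM, 0 in dediHeps) and Ctse (42.3 against 5.68 CPM) rose. The list's median log2 fold change was -0.19, against -0.05 over all genes tested. Of 9 other mucins, 3 were tested and the membrane mucins Muc1 (181 against 0.483 CPM) and Muc20 (74.4 against 0 CPM) rose. Among 16 further goblet genes, 3 of the 6 tested rose, led by Fxyd3 (503 against 0.482 CPM), Slc12a8 and Lrrc26, and the median was 2.44. Of 13 mucin folding and glycosylation genes tested, Fut2 (26.6 against 1.62 CPM) and Gcnt1 rose. Of 6 secretory fate genes tested 1 was called, the Notch target Hes1, which fell (65.4 against 367 CPM). Marker lists of other cell types moved in both directions: the 5 tuft cell markers summed to 114 to 191 CPM against 1.21 to 4.34 CPM in dediHeps. The Paneth cell list summed to 1308 to 1938 CPM against 0, with Defa17, Defa22, Defa24 and Pla2g2a at 0. Hepatocyte markers were lower, at 110 to 144 against 1008 to 4433 CPM. Enterocyte markers (273 to 328 against 37.5 to 533 CPM) and enteroendocrine markers (at most 1.39 against at most 1.51 CPM) overlapped between the groups. Their part in the levels of the 10 genes was not tested.

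The step from dediHep-SOs to dediHep-BOs, which were made with Cdx2, came with higher levels of 6 secreted goblet cell genes and lower levels of both stomach trefoils. Muc2 stood at 308, 252 and 225 CPM in BOs, above the 3.24 to 29.8 CPM of the SOs. Zg16, a lectin of the mucus layer, was at 321, 226 and 226 CPM, against 0.463 to 21.8 CPM. Tff3 was at 497, 498 and 410 CPM, against 33.3 to 88.7 CPM. In all 3 genes, every BO library lay above every SO library. The same held for Spink4, at 556, 1053 and 461 CPM, for Fcgbp, at 161, 140 and 111 CPM, and for Agr2, at 129, 108 and 122 CPM.

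Of 9 genes tested, 6 were called higher and 2 lower, where 5.60% of all 11301 genes were called higher and 5.68% lower. Muc2, Zg16 and Agr2 were low in part of the SO libraries and passed the filter through the BO libraries. Tff1 and Tff2 passed it through the SO libraries. Calls of these genes are therefore not independent of the filter and are not weighed against those shares. The log2 fold changes of those called higher were 4.20 ± 0.74 for Zg16 (edgeR adjusted p = 0.00268), 3.89 ± 0.58 for Muc2 (adjusted p = 0.0011), 3.46 ± 0.42 for Spink4 (adjusted p = 0.000337), 2.88 ± 0.35 for Tff3 (adjusted p = 0.000356), 2.72 ± 0.94 for Agr2 (adjusted p = 0.0539) and 2.52 ± 0.48 for Fcgbp (adjusted p = 0.00434). The third SO library decided the spread of Agr2. Without it the log2 fold change of Agr2 was 5.82 ± 0.38 (adjusted p = 5.75e-07). The Agr2 call was lost without SO replicate 1 or 2 or BO replicate 1 or 2, at adjusted p values of 0.104 to 0.154, while the other 7 calls held in each of the 6 fits that left out a library.

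Both stomach trefoils went the other way. Tff2 was at 0.485, 0 and 0 CPM in BOs, a total of 1 count, and fell (edgeR adjusted p = 6.12e-05). Its pooled level was 245-fold lower than in SOs, with a counting interval from 43.7 to 9727. Tff1 was at 6.31, 14.6 and 0.418 CPM and fell by 2.82 on the log2 scale (SE 0.697, adjusted p = 0.0157). Its BO and SO ranges did not overlap. Thus the adjacent genes Tff2 and Tff3 were called in opposite directions in the same comparison.

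Spdef, the transcription factor, did not follow the secreted goblet products. It stood at 10.2, 16.8 and 16.7 CPM in BOs, below the 28.8 to 44.7 CPM of SOs. Its log2 fold change was -1.36 ± 0.34 (adjusted p = 0.016), so it passed the p threshold and not that on fold, and it is not counted among the calls.

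On the list of secretory fate genes, which also holds the homeobox genes Cdx1 and Cdx2, 6 of 12 tested were called higher in the same comparison and none lower. The list's median was 2.35, against 0.00 over all genes. Those called included Atoh1, which commits cells to the secretory lineage (40.8 against 0.854 CPM), Gfi1 (11.8 against 0.165 CPM), Cdx1 (65.4 against 0.154 CPM) and Dll1 (10.8 against 0.842 CPM). Among further goblet genes, 4 of 11 tested rose, with Reg4 at 117 against 0.463 CPM and Guca2a at 106 against 1.04 CPM, while Fxyd3 fell to 79.1 CPM. Clca1, a mucus-processing protease, rose as well (18.1 against 3.86 CPM).

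Mucins and the enzymes that glycosylate them changed in both directions. Muc13 rose to 779 ± 100 CPM from 39.3 CPM, and Muc3 and Muc3a rose, near-identical loci between which reads may be split. Muc20 fell from 74.4 to 0.162 CPM. Of the glycosyltransferases, Gcnt3, Gcnt4 and B3gnt7 rose, and Fut2 and Gcnt1 fell. In the gastric list, Ctse (0.441 against 42.3 CPM), Gkn3 (3.84 against 133 CPM) and Vsig1 (16.8 against 168 CPM) fell, and Anxa10 rose (38.8 against 2.60 CPM). The lists' medians were 0.30 for mucin folding and glycosylation, 2.62 for the other mucins and -1.58 for the gastric genes.

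Markers of other lineages also differed between the dediHep organoids. Enteroendocrine markers summed to 115 to 508 CPM in BOs and at most 1.39 CPM in SOs, enterocyte markers to 2077 to 3267 against 273 to 328 CPM, and Paneth cell markers to 2765 to 5013 against 1308 to 1938 CPM. Tuft cell markers were lower in BOs, at 7.52 to 19.0 against 114 to 191 CPM. Stromal markers reached 194 CPM in BOs, with 2.09 CPM in the lowest library, and at most 0.643 CPM in SOs. The leukocyte list reached 1025 CPM in BOs, almost all of it Lyz2, which is near-identical to the Paneth cell gene Lyz1, with Ptprc at most 0.882 CPM. The part of these cell types in the goblet gene result was not tested.

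Against native organoids of the same shape, dediHep-SOs had more Tff2 and less Tff3 and Spink4 than FIPC-SOs. The same dediHep-SO libraries enter this comparison and those with dediHeps and dediHep-BOs. Tff2 was at 1.95, 1.05 and 0.963 CPM in FIPC-SOs, and its level in dediHep-SOs was higher by 4.71 ± 0.42 (log2 fold change, edgeR adjusted p = 0.000145). Tff3 was at 321, 116 and 363 CPM in FIPC-SOs and lower in dediHep-SOs by a log2 fold change of -2.08 ± 0.49 (adjusted p = 0.0176). Spink4, at 397, 186 and 283 CPM, was lower in dediHep-SOs likewise (-2.21 ± 0.40, adjusted p = 0.00514). The shares of all genes called were 4.92% higher and 3.99% lower, and 9 of the 10 genes were tested. Tff2 was scarce in FIPC-SOs and passed the filter through the dediHep-SO libraries, so its call is not weighed against these shares.

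The lower calls of Tff3 and Spink4 lay close to the fold threshold. Without dediHep-SO replicate 3 their log2 fold changes were -1.74 and -1.91, and without FIPC-SO replicate 1 they were -1.93 and -1.92, so they were not called. Without FIPC-SO replicate 3, Tff3 was at -1.78. Tff1, higher in dediHep-SOs at 1.99 ± 0.48 (adjusted p = 0.0205), fell just short of the same threshold. It was called without the filter (2.01), with the UMI correction (2.02) and with the replicate block (2.05). RLE scaling, DESeq2 and the fit of all 49 libraries did not call it. Leave-one-out values of Tff1 ran from 1.60 to 2.34 and lay on both sides of the threshold. Agr2, at 83.0, 68.3 and 118 CPM in FIPC-SOs, was not called (-2.33 ± 0.96, adjusted p = 0.134). Without dediHep-SO replicate 3, Agr2 was called lower (-5.36 ± 0.49, adjusted p = 1.87e-05) and Zg16 higher (2.36 ± 0.53, adjusted p = 0.00661). The other 3 genes tested, Muc2, Fcgbp and Spdef, were not called, at adjusted p values of 0.1 to 0.24.

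Among the context genes, the gastric Ctse and Gkn3 and the mucins Muc1 (181 against 0.974 CPM) and Muc20 were higher in dediHep-SOs than in FIPC-SOs. Atoh1 (0.854 against 24.5 CPM), Cdx1 (0.154 against 54.3 CPM), Reg4 (0.463 against 141 CPM), Gcnt3 and Muc13 were lower. The call counts were 2 higher and 3 lower of 11 goblet genes, 1 and 3 of 10 secretory fate genes, 0 and 1 of 15 folding and glycosylation genes, 2 and 1 of 3 mucins, and 2 and 1 of 5 gastric genes. Marker lists of other cell types differed as well. In dediHep-SOs, tuft cell markers summed to 114 to 191 CPM, against 0.390 to 5.14 CPM in FIPC-SOs, and cholangiocyte markers to 3476 to 4355 against 1335 to 1922 CPM. Enteroendocrine markers were at most 1.39 CPM in dediHep-SOs and 137 to 290 CPM in FIPC-SOs, and stromal markers at most 0.643 against 3.15 to 364 CPM. The part of these cell types in the levels of the 10 genes was not tested.

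Between dediHep-BOs and ISC-BOs, none of the 8 genes tested was called by edgeR, where 3.05% of all genes were called in either direction. At an unadjusted p under 0.05, 5 of them were higher in dediHep-BOs, and DESeq2 called none. Zg16 differed most, at 74.1, 108, 30.9 and 69.5 CPM in the 4 ISC-BO libraries, all below the 3 dediHep-BO libraries (log2 fold change 1.90 ± 0.35, adjusted p = 0.00976). It was called without ISC-BO replicate 2 (2.18 ± 0.31). Agr2, at 43.2 to 56.3 CPM in ISC-BOs, was higher in dediHep-BOs by 1.25 ± 0.23 (adjusted p = 0.00934), and Spink4, at 298 to 442 CPM, by 0.87 ± 0.27 (adjusted p = 0.0875). For these 3 genes the ranges did not overlap, and the difference was smaller than the fold threshold. Muc2 (78.0 to 234 CPM in ISC-BOs), Tff3 (166 to 444 CPM), Fcgbp (66.9 to 277 CPM), Tff1 (0 to 7.20 CPM) and Spdef (6.56 to 12.1 CPM) overlapped with the dediHep-BOs. Their log2 differences lay between -0.10 ± 0.39 for Fcgbp and 0.99 ± 0.34 for Muc2.

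Of 48 context genes tested between the budding organoids of both origins, 4 were called, which is 8.33%: 1 of 12 goblet genes, 1 of 15 folding and glycosylation genes, 2 of 5 gastric genes, and none of 12 secretory fate genes and 4 mucins. Guca2a (106 against 16.8 CPM), Gcnt1 (36.3 against 0.983 CPM) and Pgc, the stomach proenzyme (57.3 ± 49.4 against 5.96 CPM), were higher in dediHep-BOs. Pdx1, a factor of the duodenum, was at 0 in dediHep-BOs and 8.51 CPM in ISC-BOs.

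Added up, the 10 genes stood at 1573 to 2308 CPM in dediHep-BOs and 750 to 1573 CPM in ISC-BOs. The sum was 242 to 385 CPM in dediHep-SOs and 437 to 1039 CPM in FIPC-SOs. In the budding organoids of both origins Spink4 took the largest share of the sum (35.3% in both) and Tff3 the second largest, 24.0% in dediHep-BOs and 26.2% in ISC-BOs. Muc2 took 13.4% and 12.4%, Zg16 13.2% and 6.46%, and Fcgbp 7.02% and 13.7%. In dediHep-SOs the sum was spread over more genes, with Tff3 at 19.7%, Spink4 at 19.4%, Tff1 at 15.5% and Spdef at 11.6%, and with Tff2 between Spdef and Fcgbp (7.41%). In FIPC-SOs, Tff1 took 1.55% and Tff2 0.164%.

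**Figure D3:**
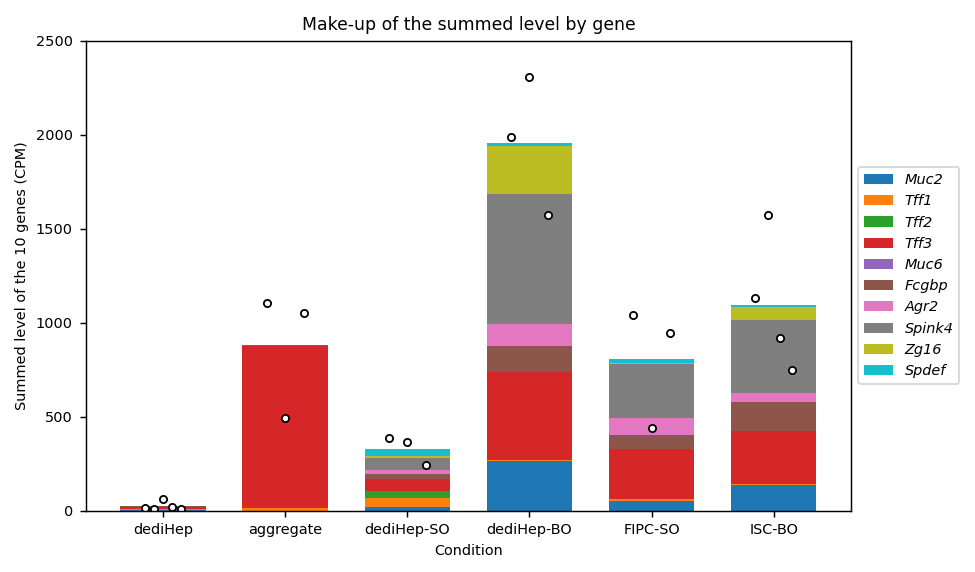
Mean level of each gene stacked to the summed level in CPM for 6 conditions, with open circles for the sum in each library. The dediHep-BO bar is the highest at 1956 CPM, the aggregate bar (882 CPM) is almost all Tff3, and the dediHep-SO bar (330 CPM) holds visible parts of Tff1 and Tff2.

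The last question was whether budding organoids differed from spherical ones in the same way in both origins. ISC-BOs against FIPC-SOs is a comparison of adult with fetal tissue as well as of shape, and dediHep-BOs differ from dediHep-SOs in Cdx2 and medium. Zg16 was the only one of 8 genes called between the native organoids (4.00% of all genes were called higher), with a log2 fold change of 4.10 ± 0.57 (edgeR adjusted p = 0.000703) from 5.84, 1.05 and 5.14 CPM in FIPC-SOs. Zg16 passed the filter through the ISC-BO libraries, so its call is not weighed against that share. In dediHep organoids the Zg16 value was 4.20, and the difference between both steps was 0.09 ± 1.16 (adjusted p = 0.97). Without dediHep-SO replicate 3 the difference was -0.49 ± 0.66. With standard errors of this size, neither value shows that the steps were equal. Spdef was lower in budding organoids of both origins, at -1.36 ± 0.38 in native ones (adjusted p = 0.0374) and -1.36 ± 0.34 in dediHep-derived ones. Its native levels were 32.7, 12.6 and 22.5 CPM in FIPC-SOs and 6.56 to 12.1 CPM in ISC-BOs.

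For other goblet genes the step was larger in the dediHep organoids. Of 9 genes tested for the difference between both steps in a fit of the 4 groups, 4 were called higher, where 5.37% of all genes were. Muc2 and Agr2, low in part of the dediHep-SO libraries, passed the filter through the other organoid groups. Their calls are not weighed against that share. The differences were 3.54 ± 1.02 for Agr2 (edgeR adjusted p = 0.0414), 3.04 ± 0.50 for Spink4 (adjusted p = 0.00166), 2.79 ± 0.58 for Tff3 (adjusted p = 0.00827) and 2.41 ± 0.81 for Muc2 (adjusted p = 0.0721). In the native organoids the step was 0.39 ± 0.26 for Spink4, 0.07 ± 0.40 for Tff3, 1.46 ± 0.50 for Muc2 and -0.84 ± 0.27 for Agr2. These 4 genes had lower means in dediHep-SOs than in FIPC-SOs and higher means in dediHep-BOs than in ISC-BOs. The Muc2 call was lost on leaving out any of 7 libraries, dediHep-SO replicate 1 or 3, dediHep-BO replicate 1 or 2, FIPC-SO replicate 3 and ISC-BO replicate 1 or 3, at adjusted p values up to 0.163, or with a log2 difference of 1.89 without dediHep-SO replicate 3. Without that library the Agr2 difference was 6.57 ± 0.49. The Tff3 call was lost with all 49 libraries in 1 fit (2.75 ± 1.07, adjusted p = 0.124). Fcgbp (1.48 ± 0.76), Tff1 (-1.29 ± 1.14) and Tff2 were not called, though DESeq2 called Tff2 (-4.58, adjusted p = 0.0473).

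**Figure D4:**
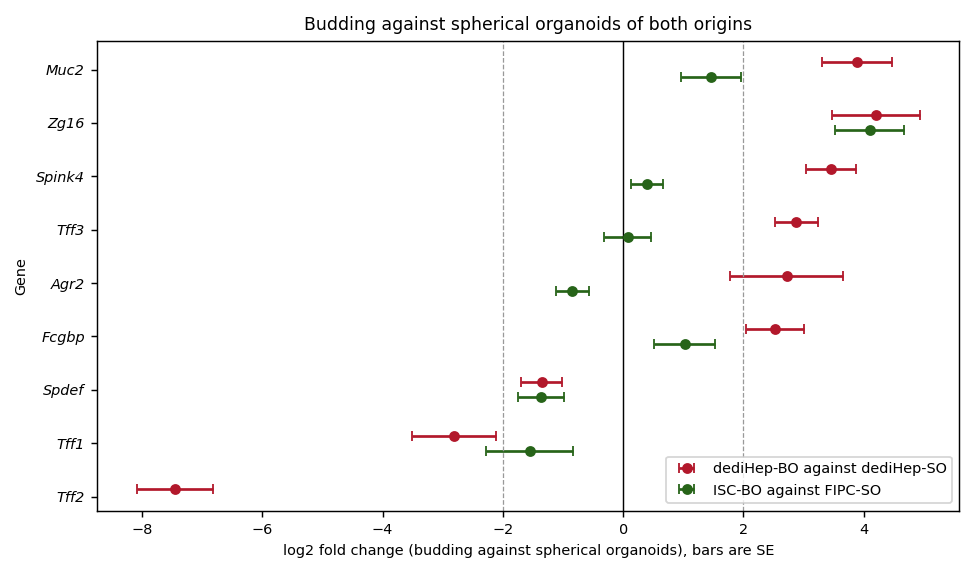
Log2 fold change (edgeR) of budding against spherical organoids for dediHep-derived (red) and native (green) cultures; bars are standard errors and dashed lines mark the fold threshold of 2 on the log2 scale. Zg16 and Spdef lie together for both origins, at about 4.2 and 4.1 and at -1.36, while Spink4 and Tff3 lie at 3.46 and 2.88 in the dediHep organoids and at 0.39 and 0.07 in the native ones.

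CLiPs, the chemically made liver progenitors, held Tff1, Tff2 and Tff3 but few counts of the other genes. Tff2 stood at 2.47, 7.35 and 3.17 CPM, at least 20.4-fold above dediHeps on pooled counts, and was too scarce to be tested. Tff3 was at 21.7, 8.20 and 166 CPM, with the third library highest, and was not called (2.73 ± 1.25, adjusted p = 0.302). It was called with all 49 libraries in 1 fit (2.64, adjusted p = 0.0111) and with a replicate block (3.21, adjusted p = 0.0728). Tff1, at 3.78 to 6.41 CPM, was the other gene tested and not called (-0.58 ± 1.18, adjusted p = 0.84), and DESeq2 called neither. Of the 2, 0 had an unadjusted p under 0.05. Of all genes, 3.04% were called in this comparison. Agr2 and Zg16 had no count in CLiPs, and Muc2, Fcgbp, Spink4 and Spdef were at 2.26 CPM or below. Paneth cell markers summed to 19.8 to 153 CPM in CLiPs and 0 in dediHeps, with Ang4, Defa17, Defa22, Defa24 and Pla2g2a at 0 in CLiPs. Tuft cell markers summed to 9.25 to 44.9 against 1.21 to 4.34 CPM, with Trpm5, Pou2f3 and Alox5ap at 0 in CLiPs. Leukocyte markers summed to 67.5 to 139 CPM, above all dediHep libraries (median 4.52 CPM), with Ptprc at 0 in CLiPs. The part of these markers' cell types in the Tff2 and Tff3 levels was not tested.

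Muc6, the gland mucin encoded next to Muc2, had 59 counts in the whole series and none in the dediHep-SOs, where Tff2 was highest. It was not tested in any comparison. Its highest library was the 14-day monolayer named above, with 23 counts.

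The genes whose 16 condition means were most alike, by Pearson's r on the log2(CPM + 1) scale, differed by gene. For Muc2 they were Car12 (0.988), Fcgbp and Adra2a, for Spink4 Phgr1 (0.990), Tm4sf5 and Tmem45b, and for Zg16 B3gnt7 (0.981), Adra2a and Adgrg7. For Fcgbp they were Tox3 (0.988), Phgr1 and Car12, for Agr2 BC016579 (0.990), Lpar1 and Bcl11b, and for Spdef Tns4 (0.978), S100a14 and Pglyrp1. Tff2 was most like Sftpd (0.988), Pdlim4 and Mal, and Tff3 like Eps8l3 (0.931), S100g and Cdhr2. For Tff1 the highest value was 0.837, with Gm5620.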

How the data were processed

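RNA was measured by CEL-seq2, which tags each molecule at its 3′ end with a unique molecular identifier (UMI). The authors deposited 1 table of UMI counts, whole numbers that were not normalised. The submitters' processing notes name GRCm38, bcl2fastq 2.20, Bowtie2 2.3.1 and HTSeq 0.6.0. A count cannot exceed 4096, the number of UMI sequences, and the highest count of any of the 10 genes was 2387. Symbols were matched through the GENCODE gene table. Each comparison was fitted on its own groups with edgeR 4.0.16 (R 4.3.3; quasi-likelihood F-test, TMM, filterByExpr), with Benjamini-Hochberg adjustment over all genes tested. Calls needed an adjusted p below 0.1 together with a log2 fold change beyond 2 in either direction. The filter let 0 to 9 of the 10 genes into a fit, in part through the group in which they were high. On simulated counts for dediHep-BOs against dediHep-SOs (11101 genes), 97.0% of genes changed by 3 on the log2 scale were recovered, and for dediHep-SOs against dediHeps (11260 genes) 86.9%. The changed genes were picked at random, at their mean level over both groups, with libraries drawn independently. These rates therefore do not describe genes near 0 in 1 group or libraries that share a culture. All 10 genes and the further lists were chosen with earlier results of these data known. Context genes named were the called ones with the smallest p, at most 6 per list. P-values measure the spread between these libraries, some of which share a culture. Aggregates and dediHeps of the same culture code deviated together (r of 0.183 to 0.359 over 3 pairs), while dediHep-SOs and dediHeps of the same code did not (-0.511 to 0.0482 over 3 pairs). A block by culture was tried for both. Alternatives were RLE scaling, DESeq2, no filter, all 49 libraries in 1 fit, a correction for repeated UMIs, leave-one-out fits and replicate blocks.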

Additional observations from a re-analysis of the deposited data

Results flagged for a closer look

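The difference between the step from spherical to budding organoids in dediHep-derived and in native cultures passed its own test for 4 genes, with log2 values of 3.54 for Agr2, 3.04 for Spink4, 2.79 for Tff3 and 2.41 for Muc2 (edgeR, interaction of both factors). For each, the step was larger in the dediHep organoids, which does not mean a higher level in them. The Muc2 and Tff3 calls were lost in some of the alternatives, as given above.

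A single library stood far from the others of its group in 3 of 20 combinations of gene and group examined with Dixon's criterion. A lone count among zeros is always flagged by it and a group of zeros never is, so this number is not read against a chance rate. All rest on 1 count: Tff2 at 0.424 CPM and Muc6 at 0.424 CPM, both in ISC-BO replicate 3, and Spdef at 0.302 CPM in dediHep replicate 3, with 0 in the other libraries of the group.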

How the results depend on the processing

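RLE scaling, DESeq2 and the correction for repeated UMIs kept each of the 11 counts of called genes within 1.5 times. Without the low-count filter the counts were 2 for the time course (1 with the filter), 4 for dediHeps against FH (0), 2 for aggregates (1), 9 for dediHep-SOs against dediHeps (4), 5 for dediHep-SOs against FIPC-SOs (3) and 1 for CLiPs (0). With all 49 libraries in 1 fit they were 3, 4, 2 and 9 for the first 4 of these, 2 for CLiPs, 2 for ISC-BOs against FIPC-SOs (1) and 0 for verteporfin (1). The replicate block by number gave 5 for dediHep-SOs against FIPC-SOs, 1 for dediHep-BOs against ISC-BOs (0) and 1 for CLiPs. The block by culture gave 6 for dediHep-SOs against dediHeps, adding Tff1 and Tff3, and 1 for aggregates, as without it. The cause of these shifts was not tested, apart from the number of genes admitted by the filter.

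Leaving out 1 library at a time gave 0 to 1 called genes for dediHep-BOs against ISC-BOs. Signs turned only for values that were not called. Tff1 between dediHep-BOs and ISC-BOs was -0.034 with the replicate block. The Spdef difference between both steps was 0.0059 without the filter and 0.0103 with the UMI correction. Leave-one-out log2 values of 6 such results crossed 0: -7.04 to 1.13 for Tff1 in aggregates against dediHeps, -0.36 to 1.29 for Tff1 and -0.34 to 0.38 for Fcgbp between dediHep-BOs and ISC-BOs, -0.28 to 0.36 for Tff3 between ISC-BOs and FIPC-SOs, and, for the difference between both steps, -0.37 to 0.29 for Spdef and -0.49 to 0.56 for Zg16. Depth limits Muc6, Tff2 outside the dediHep-SOs and most goblet genes in monolayers, where levels lay near the 0.630 to 4.10 CPM that 3 counts are worth.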
